A study of Homo sapiens with 36 samples.

Results

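The class 3 semaphorins and their receptors were followed in A549 cells during 21 days of IL-1β and for 30 days after its withdrawal. Members were the count rows whose Ensembl identifiers map to 10 symbols, which are 10 of the 63677 genes listed: the ligands SEMA3A, SEMA3B, SEMA3C, SEMA3E and SEMA3F, the neuropilins NRP1 and NRP2, and the plexins PLXNA1, PLXNA2 and PLXND1. They were chosen with their CPM and their IL-1β against control differences known, in particular that SEMA3F was higher after withdrawal and not before. Levels, fold changes and calls of these 10 genes in that comparison are therefore given as a description, with no p-value.

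A549 is an established human lung adenocarcinoma line, and IL-1β is a proinflammatory cytokine. Cells in RPMI with 10% serum received IL-1β at 1 ng/ml and were collected at days 6, 15 and 21 of exposure, or had it withdrawn at day 21 and were collected 6, 15 and 30 days later. Untreated A549 cells were collected beside them at each of these 6 times. With 3 biological replicates in each of the 12 groups, 36 mRNA libraries were sequenced. No source used here says that replicates came from separate cultures, so the errors and p-values measure only the spread between these samples, which may be technical.

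Class 3 semaphorins are secreted proteins that were found as guidance cues for growing axons and that also act on endothelial and tumour cells. Most bind a neuropilin, which holds the ligand, and signal through a plexin, whose cytoplasmic part acts on small GTPases, whereas SEMA3E can bind PLXND1 directly. The ligands are cleaved by furin-like proprotein convertases, and neuropilins also bind VEGF family ligands, so that the 2 systems share receptors. SEMA3B and SEMA3F lie in a region of chromosome 3 that is often lost in lung cancer.

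Depth ranged from 9116032 to 23570026 counts on genes per library. The transcripts of CXCL8 and CCL2, both chemokine genes induced by IL-1β, followed the labels: CXCL8 was higher at day 21 (log2 fold change 6.91 ± 0.45 SE) and not at day 30 after withdrawal (-0.97 ± 0.48). CCL2 was at 3.77 ± 0.41 and -0.38 ± 0.43 at these times, and was still called higher at day 6 after withdrawal (1.625 ± 0.40). In 11 libraries, 6 of control and 5 of IL-1β cells, mitochondrial genes took 11.8% to 24.6% of counts, against 5.61% to 7.75% in the other 25. Of these 11, 8 carry replicate number 2 and 8 were collected after withdrawal, and without them the control groups at days 6 and 15 after withdrawal hold 1 library each. In the 9 groups that hold libraries of both kinds, PLXND1 and PLXNA1 were lower in the high-mitochondrial libraries in 9 of 9 groups, by a mean of -0.80 and -0.74 log2 CPM. SEMA3C and NRP2 were higher in 9 of 9 groups, by 0.24 and 0.25. SEMA3A was higher in 8 of 9 groups, by a mean of 0.55, and PLXNA2 was lower in 8 of 9, by a mean of -0.74. Without these libraries, the uncalled differences that moved by more than 0.3 on the log2 scale and are not given with their gene were SEMA3B at day 6 after withdrawal (0.31 to -0.03), PLXNA1 at day 30 after withdrawal (0.37 to 0.07) and PLXNA2 at day 6 of exposure (-0.82 to -0.40) and day 15 after withdrawal (-0.87 to -1.23). Of the epithelial markers, CDH1, KRT8 and KRT18 were abundant, while EPCAM had 434 reads and KRT19 31 reads in all libraries together. The endothelial markers CDH5 and TEK, the leukocyte markers PTPRC and CD3E, the fibroblast marker LUM and the neuronal marker STMN2 had 3 or fewer counts in every library. Other markers on these lists were read: SNAP25 (8753 reads in all) and RBFOX3 (1164) of neurons, CD14 (3586) and CD68 (84) of leukocytes, COL1A1 (962), DCN (120), PDGFRB (78) and COL1A2 (52) of fibroblasts, and VWF (40) of endothelial cells. Of these, COL1A1 was called higher at days 6 and 21 of IL-1β (1.02 and 1.24 log2) and RBFOX3 lower at days 15 and 21 (-1.26 and -1.21), and their part in the results was not tested.

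In untreated cells the 10 genes spanned a wide range of levels. Per kilobase of exon, the median over the 18 control libraries was 35.5 CPM for SEMA3C, 27.5 for NRP2 and 25.1 for NRP1. The next group held PLXNA1 at 6.35, SEMA3A at 5.58 and PLXND1 at 4.63 CPM per kilobase. SEMA3B at 1.03 and SEMA3E at 0.997 followed, and SEMA3F at 0.189 and PLXNA2 at 0.110 were lowest. The ranges of neighbours in this order overlapped except at 2 steps, between NRP1 (20.1 to 30.5) and PLXNA1 (2.02 to 8.10) and between SEMA3E (0.654 to 1.36) and SEMA3F (0.0845 to 0.326). The abundant ligand was thus SEMA3C, which made up a median of 77.3% of the reads on the 5 ligands in control libraries of the exposure days, and SEMA3F made up 0.323%.

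The levels of the genes in untreated cells were also compared over the culture itself. The contrast between control collections was not the one on which the genes were chosen, but the same control libraries and their CPM entered that choice, so these counts are a description and not independent evidence. Between the day 30 withdrawal collection and day 6, 0 of the 10 were called, that is changed more than 2-fold at a Benjamini-Hochberg adjusted p under 0.05 in edgeR's quasi-likelihood test, beside 0.0104% of all 19180 genes tested. At an unadjusted p under 0.05, 0 of 10 passed by edgeR, beside 1.94% of all genes, and 0 of 10 by DESeq2. Differences ranged from -0.39 ± 0.51 (log2, SE) for PLXNA2 to 0.16 ± 0.42 for SEMA3F. For any difference among the 6 control collections, 0 of 10 passed after adjustment (0.00521% of all genes), and 1, PLXNA2, passed before adjustment at the 0.05 level by edgeR, beside 3.62% of all genes, as did 1 by DESeq2.

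**Figure D1:**
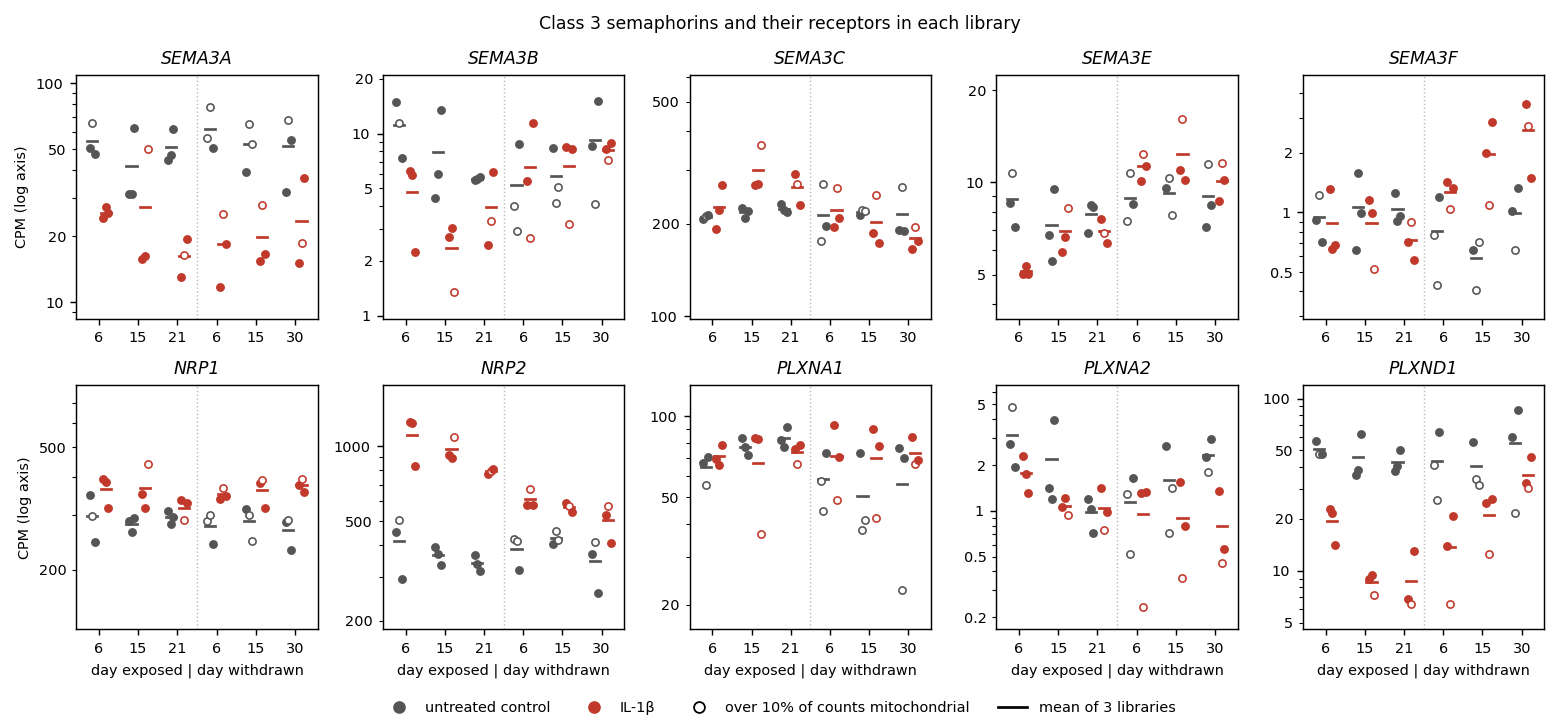
CPM of the 10 genes in each of the 36 libraries, on log axes, by day of exposure (left of the dotted line) and day after withdrawal (right), with grey points for untreated control and red for IL-1β, bars at the mean of 3 libraries and open points for libraries with over 10% mitochondrial counts. NRP2 lay at 772.5 to 1252 CPM in the IL-1β libraries of the exposure days against 294 to 505 in controls, PLXND1 was lower at the same days, and SEMA3F exceeded its controls at days 15 and 30 after withdrawal.

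The promoters of the most and the least abundant ligand and of PLXND1, the receptor with the largest decrease, are shown to set these genes side by side. Each is the 250 bases before the RefSeq start (table of GRCh38.p14), placed on GRCh37 by exact match and written on the gene's strand with CG dinucleotides in capitals.
SEMA3C (chr7:80551706-80551955, minus strand): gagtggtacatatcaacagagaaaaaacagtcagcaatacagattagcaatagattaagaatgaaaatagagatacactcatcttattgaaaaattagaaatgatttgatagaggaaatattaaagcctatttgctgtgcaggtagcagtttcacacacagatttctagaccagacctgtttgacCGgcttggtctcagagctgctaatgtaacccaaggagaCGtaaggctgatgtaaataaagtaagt
SEMA3F (chr3:50192241-50192490, plus strand): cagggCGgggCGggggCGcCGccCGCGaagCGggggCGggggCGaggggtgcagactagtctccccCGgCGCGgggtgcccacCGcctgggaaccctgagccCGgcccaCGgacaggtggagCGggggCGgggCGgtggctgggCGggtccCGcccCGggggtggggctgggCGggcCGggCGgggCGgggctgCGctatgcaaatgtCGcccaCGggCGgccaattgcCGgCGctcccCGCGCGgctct
PLXND1 (chr3:129325520-129325769, minus strand): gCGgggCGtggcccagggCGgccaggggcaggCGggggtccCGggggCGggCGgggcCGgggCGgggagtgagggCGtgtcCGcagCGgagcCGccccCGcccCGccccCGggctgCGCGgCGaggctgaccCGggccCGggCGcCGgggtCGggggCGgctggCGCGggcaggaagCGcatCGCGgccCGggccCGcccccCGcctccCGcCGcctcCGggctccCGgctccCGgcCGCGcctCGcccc
The SEMA3C window is 36.4% GC with 2 CG dinucleotides, whereas SEMA3F is 82% GC with 34 and PLXND1 88.8% GC with 41, against medians of 58% and 11 over 35116 RefSeq promoters. Of the 8 genes with a RefSeq promoter entry, SEMA3F alone held CAGGTG or its reverse complement, a letter string bound by Snail family factors (1 match, 17.5% of all promoters), and 0 held the AP-1 string TGANTCA (6.57%). A loose NF-kB string, GGG and CC with any 5 bases between them, was sought on both strands. It matched 7 times in SEMA3F, 7 in PLXND1, 5 in PLXNA1 and 3 each in NRP2 and PLXNA2. In SEMA3B, SEMA3C and SEMA3E it matched 0 times, and 54.4% of all promoters held at least 1 match. A stricter form, GGGA, any base, TT, any base and CC, which was added after the matches of the loose string had been seen, matched 0 times in the 8 windows (1.26% of all promoters). These matches describe letters and not binding. The RefSeq start of SEMA3B lies 5560 bases after the start of the gene in GENCODE, so its window is inside the gene. For NRP2 and PLXNA1 the RefSeq start lies 511 and 422 bases after it. The bases before the GENCODE starts of these genes were not searched.

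Of the 60 gene and time pairs, 9 were past both thresholds, 6 of 30 during exposure and 3 of 30 after withdrawal. At day 6 of exposure 1 of 10 genes was called, and it was higher, beside 2.77% of all tested genes in either direction and 1.52% higher. At day 15 there were 2 (4.24% of all genes), 1 higher (1.94%) and 1 lower (2.3%). At day 21 there were 3 (4.26%), 1 higher (2.19%) and 2 lower (2.06%). At day 6 after withdrawal there were 2 (1.8%), 0 higher (1.08%) and 2 lower (0.725%). At day 15 there was 1 (0.954%), higher (0.594%) and 0 lower (0.36%), and at day 30 there were 0 (0.897%). All comparisons at a time point rest on the same 3 control libraries, and nothing is read from these shares, since the genes were chosen on this comparison.

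Among the ligands, SEMA3A (chr7:83585093-84122040, GRCh37, minus strand), a repellent of growing axons that binds NRP1, was lower with IL-1β. At day 21 its control libraries held 44.6, 47.1 and 62.0 CPM and the IL-1β libraries 13.03, 16.5 and 19.3. At day 6 after withdrawal the controls held 56.4, 78.2 and 50.3 CPM and the IL-1β libraries 11.7, 25.2 and 18.4. The groups did not overlap at these times, and these were the 2 called decreases, of -1.65 ± 0.40 and -1.75 ± 0.40 (log2 fold change, SE). At days 6 and 15 of exposure and days 15 and 30 after withdrawal the differences were -1.09, -0.62, -1.40 and -1.12 and were not called. Day 6 was called, however, in the fit of that time point alone. Day 15 after withdrawal was called by DESeq2 and with a yes or no covariate for high mitochondrial share. The groups overlapped at day 15, where the high-mitochondrial IL-1β library held 49.9 CPM against 15.7 and 16.3 in the others, and at day 30 after withdrawal. Without the high-mitochondrial libraries the day 15 difference was -1.38 and was called, and that at day 30 after withdrawal was -0.72. Both calls were lost without replicate 1 and without replicate 2, and that at day 6 after withdrawal also in the fit of that time point alone.

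SEMA3B (chr3:50304990-50314977, plus strand), a candidate tumour suppressor, held 14.9, 11.4 and 7.39 CPM in day 6 controls and 6.21, 5.92 and 2.24 with IL-1β. At day 15 the controls held 4.44, 6.01 and 13.5 CPM and the IL-1β libraries 2.70, 3.02 and 1.35. The groups did not overlap at either day, with differences of -1.24 ± 0.53 and -1.73 ± 0.55 that were not called. With a yes or no covariate for high mitochondrial share both were called (-1.57 and -1.53), and DESeq2 called that at day 15. From day 21 on they overlapped, with differences between -0.50 and 0.31. High-mitochondrial libraries were lower in SEMA3B in 8 of 9 groups, by a mean of -0.88.

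SEMA3C (chr7:80371854-80551675, minus strand), a ligand of NRP1 and NRP2, was the steadiest of the ligands. Its control libraries lay between 176 and 269 CPM and its IL-1β libraries between 166 and 362. The largest difference was 0.46 ± 0.17 at day 15, where all 3 IL-1β libraries (267.5, 270.4 and 361.6 CPM) exceeded the controls (224, 208 and 221). At the other 5 times the groups overlapped, with differences from -0.26 to 0.23. Since SEMA3C held its level while SEMA3A was lower, the ratio of their reads within a library was 3.11 to 7.20 in controls and 4.78 to 22.3 with IL-1β.

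SEMA3E (chr7:82992554-83278455, minus strand), a ligand of PLXND1, was lower at day 6 of IL-1β. Controls held 8.57, 10.7 and 7.15 CPM and IL-1β libraries 5.04, 5.34 and 5.02, a difference of -0.78 ± 0.22 that was under the fold threshold. At the other times the groups overlapped, with differences from -0.19 at day 21 to 0.42 at day 15 after withdrawal, which was 0.15 without the high-mitochondrial libraries.

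SEMA3F (chr3:50192478-50226508, plus strand), a ligand that binds mainly NRP2, rested on 689 reads in all 36 libraries, between 4 and 61 in a library. During exposure it was not higher with IL-1β. At day 21 controls held 1.25, 0.905 and 0.956 CPM and IL-1β libraries 0.706, 0.898 and 0.575. There every IL-1β library was below every control, the closest at 0.898 against 0.905, and the difference was not called. At day 6 after withdrawal the IL-1β libraries (1.42, 1.04 and 1.33 CPM) overlapped the controls (0.774, 0.432 and 1.20), and the difference of 0.59 was 0.21 without the high-mitochondrial libraries. At day 15 after withdrawal they held 1.99, 1.09 and 2.84 CPM (31, 15 and 61 reads) against 0.649, 0.408 and 0.711 (10, 4 and 7 reads). At day 30 they held 3.53, 2.73 and 1.497 CPM (52, 42 and 32 reads) against 1.02, 0.643 and 1.33 (19, 5 and 27 reads). The IL-1β libraries were above every control at both of the later times. Their means were 1.97 and 2.59 CPM at days 15 and 30, against control means of 0.589 and 0.998. The control mean at day 15 was the lowest of the 6 control groups, the others lying between 0.803 and 1.07 CPM. High-mitochondrial libraries were lower in SEMA3F in 6 of 9 groups and higher in 3, with a mean difference of -0.33 log2 CPM. On the log2 scale the SEMA3F differences were -0.09, -0.22 and -0.54 at the exposure days, with SE of 0.41 to 0.43. After withdrawal they were 0.59 ± 0.42, 1.74 ± 0.44 and 1.29 ± 0.39, and that at day 15 alone was called. That call was lost when any 1 replicate was left out, with values of 1.49 to 1.81, with no filter on low counts, in the fit of that time point alone, and without the high-mitochondrial libraries, where 1 control library is left (1.91). With a yes or no covariate for high mitochondrial share, day 30 was called too. SEMA3F made up 0.344% to 1.75% of the ligand reads of IL-1β libraries after withdrawal and 0.120% to 0.493% of those of their controls. An antisense RNA, SEMA3F-AS1, shares 110 exonic bases with it (2.28% of its exons) and had 414 reads in all. It had 9 to 17 reads in the IL-1β libraries at day 15 after withdrawal and 7 to 10 in their controls, and at day 30 it had 13 to 20 reads against 2 to 14. The strand setting of the counting is not given in the sources used here, so reads of the shared bases cannot be told apart.

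SEMA3F and SEMA3B are neighbours on chromosome 3, with 78481 bases between them. At day 15 of exposure SEMA3B was at -1.73 and SEMA3F at -0.22, and at day 15 after withdrawal they were at 0.16 and 1.74 on the log2 scale.

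**Figure D2:**
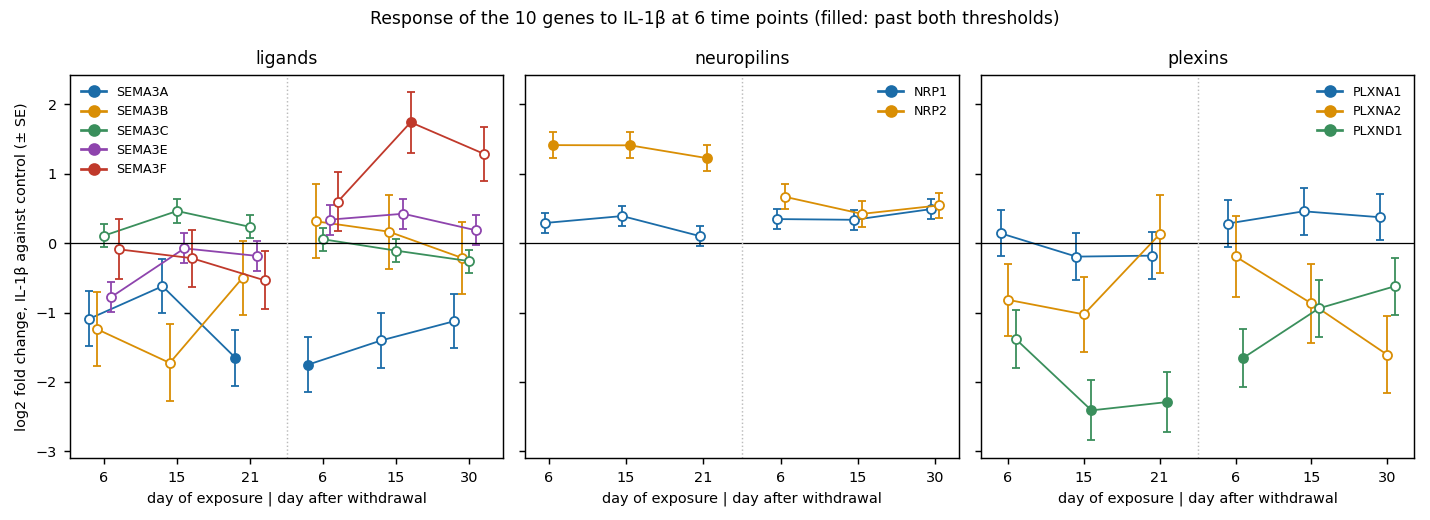
Log2 fold change of IL-1β against control with its SE, by day of exposure (left of the dotted line) and day after withdrawal (right), for ligands, neuropilins and plexins, with filled points past both thresholds. SEMA3F reached 1.74 at day 15 after withdrawal, NRP2 was filled at the 3 exposure days and PLXND1 was lowest at day 15 of exposure (-2.41).

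Of the neuropilins, NRP2 (chr2:206546714-206662857, plus strand), a receptor of SEMA3F, SEMA3C and VEGFC, rose during exposure. Controls held 452, 505 and 294 CPM at day 6 against 1252, 1241 and 829.5 with IL-1β. At day 15 the values were 394, 369 and 334 CPM against 920.2, 896 and 1092, and at day 21 they were 367, 336 and 317 against 772.5, 798 and 809. The groups were wide apart at each of these days. The log2 fold changes were 1.41 ± 0.19, 1.41 ± 0.19 and 1.22 ± 0.19, and all 3 calls were made in every fit tried. After withdrawal the differences were 0.67 ± 0.18, 0.42 ± 0.18 and 0.54 ± 0.18, all under the fold threshold. Those at days 15 and 30 missed the adjusted p threshold as well. At day 30 the groups overlapped (410 to 575 CPM with IL-1β, 258 to 412 in controls).

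NRP1 (chr10:33466420-33625190, minus strand), the receptor that SEMA3A and VEGFA bind, moved less. Its differences lay between 0.10 ± 0.14 at day 21 and 0.49 ± 0.14 at day 30 after withdrawal and were not called. The IL-1β libraries lay above every control at day 15 of exposure (317 to 440.3 CPM against 265 to 294), at day 6 (339 to 370.1 against 243 to 302) and day 15 after withdrawal (316.7 to 391.7 against 248 to 316.0), and at day 30 (359 to 395 against 231 to 289). They overlapped at days 6 and 21 of exposure. Without the high-mitochondrial libraries the differences at days 6 and 15 after withdrawal were 0.52 and 0.15. The ratio of NRP2 to NRP1 reads within a library was therefore 2.30 to 3.22 with IL-1β during exposure and 1.07 to 1.69 in controls. After withdrawal it was 1.14 to 1.82 and 1.12 to 1.69, ranges that overlapped. NRP1 and NRP2 each share exonic bases with an antisense RNA (4.87% and 1.06% of their exons), with 19 and 174 reads in all libraries.

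**Figure D3:**
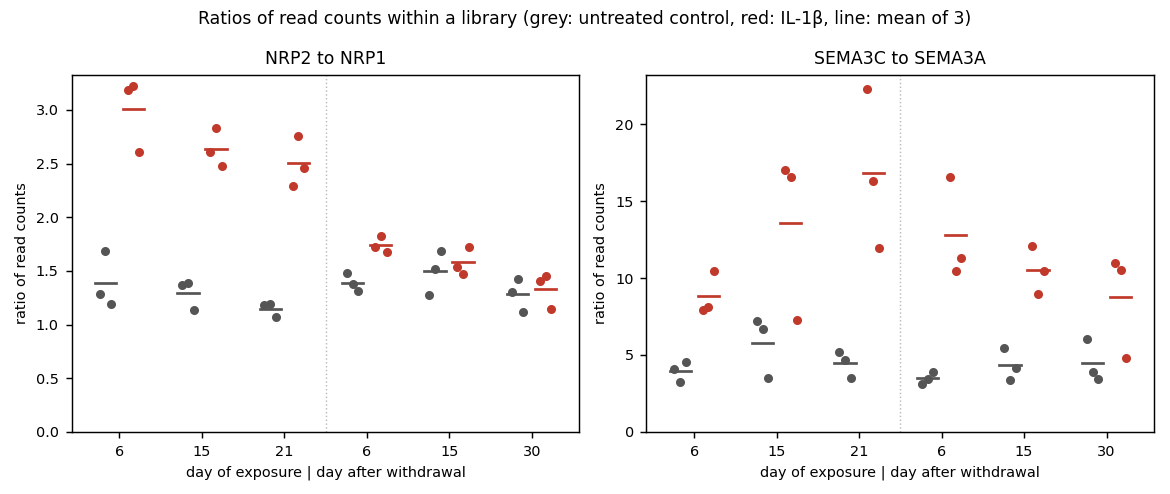
Ratio of read counts within each library, NRP2 to NRP1 (left panel) and SEMA3C to SEMA3A (right panel), on axes from 0 by day of exposure and day after withdrawal, with grey points for control, red for IL-1β and lines at the mean of 3 libraries. The NRP2 to NRP1 ratio was 2.30 to 3.22 in IL-1β libraries during exposure and overlapped the controls after withdrawal.

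Among the plexins, PLXND1 (chr3:129274057-129325519, minus strand), the receptor of SEMA3E, was the member with the largest decrease. Controls held 56.6, 47.8 and 47.4 CPM at day 6 against 22.8, 21.5 and 14.1 with IL-1β. At day 15 the values were 35.8, 38.6 and 62.5 CPM against 8.96, 9.47 and 7.24, and at day 21 they were 38.2, 40.5 and 50.5 against 6.84, 6.44 and 12.97. The groups did not overlap at these times or at days 6 and 15 after withdrawal. On the log2 scale the difference was -1.38, -2.41 and -2.29 at the exposure days and -1.66, -0.94 and -0.62 at the later ones, each with an SE between 0.41 and 0.43. Those at days 15 and 21 of exposure and day 6 after withdrawal were called. The calls at days 15 and 21 were lost without replicate 1, and that at day 6 after withdrawal without replicate 1, without replicate 3, with scaling by total counts only and in the fit of that time point alone. The day 6 difference was called by DESeq2, in the fit of that time point alone and without replicate 2. It was also called with a yes or no covariate for high mitochondrial share, which brought a call at day 15 after withdrawal too. At day 30 after withdrawal the IL-1β libraries held 32.5, 30.3 and 45.8 CPM and the controls 59.7, 21.5 and 85.4, the lowest of which is a high-mitochondrial library. Without such libraries the differences were -1.41 at day 6, which was then called, -2.31 at day 15, -2.09 at day 21 and -0.88 at day 30 after withdrawal.

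PLXNA1 (chr3:126701536-126756232, plus strand), a plexin that pairs with neuropilins, overlapped its controls at each of the 6 times, with differences from -0.20 to 0.46 and SE of 0.33 to 0.34. PLXNA2 (chr1:208195587-208417729, minus strand), of the same class, had 2 to 80 reads in a library. Its differences were not called, and the largest, -1.61 ± 0.56, was at day 30 after withdrawal, where IL-1β libraries held 1.36, 0.455 and 0.561 CPM (20, 7 and 12 reads) and controls 2.26, 1.80 and 2.95.

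The genes whose log2 CPM followed SEMA3F most closely over the 36 libraries were COL6A2 (Pearson r = 0.78), NPC1 (0.74), HTRA1 (0.73), COL6A1 (0.73) and C11orf86 (0.73). Over the 25 libraries without high mitochondrial share these r were 0.67, 0.71, 0.73, 0.68 and 0.70. Those closest to PLXND1 were SEMA4G (0.97), KRT18 (0.97), TMEM37 (0.97), BMP8B (0.96) and BIN1 (0.96). Libraries of a group share its treatment and time, so these r are descriptions. The epithelial markers CDH1, KRT8 and KRT18 were called lower at all 3 exposure days, with KRT18 at -2.28 ± 0.34 at day 15. At day 6 after withdrawal CDH1 and KRT18 were called lower too (-1.29 and -1.21), and KRT8 was not (-1.08). The summed CPM of the epithelial markers ranged from 899 to 5142 in IL-1β libraries and from 2901 to 7624 in controls. Whether that shift has a part in the change of PLXND1 was not tested.

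Other genes of the pathway were taken from lists of semaphorins, plexins, co-receptors and effectors, convertases and VEGF family genes, 55 in all, of which 45 had enough reads. The other class 3 ligands SEMA3D and SEMA3G had 30 and 127 reads in all libraries and were not tested. Between 0 and 6 of the 45 were called in a direction at a time point, in all 23 gene and time pairs during exposure and 6 after withdrawal. At days 6, 15 and 21 these were 2 higher and 4 lower, 2 and 6, and 4 and 5. Of all tested genes, 1.52% and 1.25%, 1.94% and 2.3%, and 2.19% and 2.06% were called. After withdrawal they were 2 and 0, 1 and 0, and 2 and 1. The shares of all genes were 1.08% and 0.725%, 0.594% and 0.36%, and 0.433% and 0.464%. The lists were chosen with earlier results of these data known, so nothing is read from these shares. The list medians lay between -0.18 and 0.15, and those of all tested genes between -0.02 and 0.02. Of the 29 calls, 24 were lost without replicate 1. The p-values given are from edgeR's quasi-likelihood test, adjusted by Benjamini-Hochberg over all tested genes.

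Of the semaphorins of other classes, SEMA4G was lower at all 3 exposure days (log2 fold change -1.83, -1.90 and -1.85; adjusted p = 0.00444, 0.00248 and 0.00309). SEMA6B, a transmembrane semaphorin that binds A-type plexins, fell by 1.60 and 1.73 on the log2 scale at days 15 and 21 (adjusted p = 0.0386 and 0.0223). SEMA7A, a membrane-anchored semaphorin that binds PLXNC1 and integrins, rose by 1.73 at day 21 and 1.98 at day 6 after withdrawal (adjusted p = 0.00693 and 0.00833). The other 5 tested plexins held 0 calls.

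Among co-receptors and effectors, L1CAM, an adhesion molecule that pairs with NRP1 for SEMA3A, was higher at day 21 and at all 3 times after withdrawal (1.62, 2.05, 1.91 and 1.53; adjusted p = 0.00372, 0.00106, 0.00406 and 0.0244). Without the high-mitochondrial libraries the last 2 of these calls were lost (1.70 and 1.33; edgeR adjusted p = 0.217 and 0.0993). When a replicate was left out, the L1CAM call at day 6 after withdrawal was made in 2 of 3 fits. Those at day 21 and at days 15 and 30 after withdrawal were made in 1 of 3 each. None of its calls after withdrawal was made in separate fits of each time point. For L1CAM the control libraries averaged 6.09 ± 1.82 CPM (SD, n = 3) and the IL-1β libraries 23.1 ± 6.05 at day 15 after withdrawal, the time at which SEMA3F was called. MICAL2, of a family of oxidoreductases that act on actin, was higher at days 6, 15 and 21 (1.16, 1.34 and 1.35; adjusted p = 1.69e-06, 1.14e-07 and 8.79e-08), calls that were made in each fit that left out a replicate. DPYSL5, of the family of semaphorin-responsive collapsin mediators, was lower at the same days (-1.04, -1.90 and -1.30; adjusted p = 0.0455, 0.000128 and 0.00568). RND1, a small GTPase that binds plexins, was lower at days 6 and 15 and at day 30 after withdrawal (-1.33, -1.87 and -1.60; adjusted p = 0.0405, 0.00241 and 0.0311). Its calls at day 6 and at day 30 after withdrawal were lost in each fit that left out a replicate.

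Of the convertases, PCSK6 was lower at days 15 and 21 (-1.12 and -1.20; adjusted p = 0.000533 and 0.000209), and FURIN held no call. In the VEGF family, VEGFC, a ligand of FLT4 and NRP2, was higher at the 3 exposure days and at day 30 after withdrawal (1.16, 1.46, 1.30 and 1.15; adjusted p = 0.000962, 3.57e-05, 0.000145 and 0.00478). VEGFC was called at day 15 in each fit that left out a replicate, at days 6 and 21 in 2 of 3 and at day 30 after withdrawal in 1. FLT4, its receptor tyrosine kinase, was lower at the 3 exposure days (-1.22, -1.22 and -1.46; adjusted p = 0.00627, 0.00535 and 0.000606). At day 6 it held 2.37 ± 0.22 CPM in controls and 1.02 ± 0.14 with IL-1β. Its calls at days 6 and 15 were lost in each fit that left out a replicate, and that at day 21 was kept in each. At the exposure days VEGFC and NRP2 were thus higher and FLT4 lower in the same libraries.

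**Figure D4:**
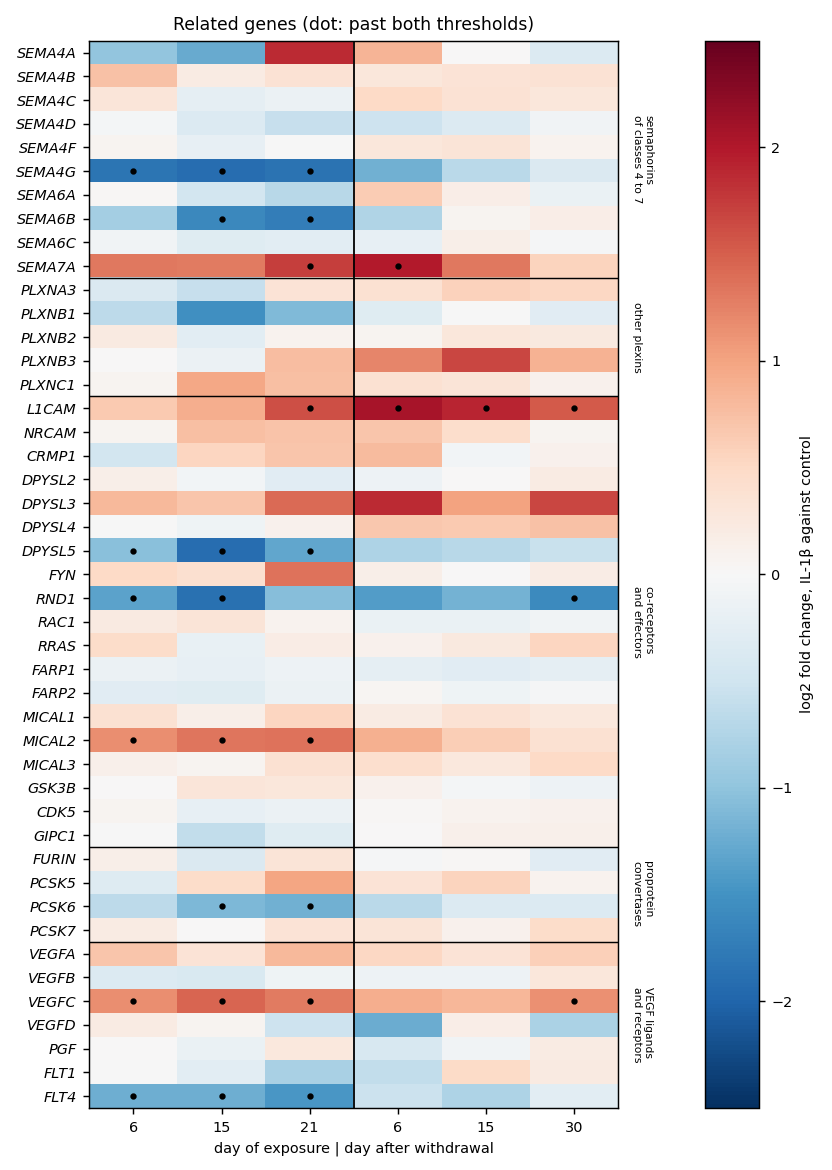
Log2 fold change of IL-1β against control for the 45 tested related genes (rows, by list), by day of exposure (left of the vertical line) and day after withdrawal (right), with red for higher, blue for lower and a dot where both thresholds were passed. Dots number 23 during exposure and 6 after withdrawal, with L1CAM dotted at 4 times, from 1.53 to 2.05.

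The change of the response from day 21 to day 30 after withdrawal was also tested for the related genes, in a comparison added after the others. Of the 45, MICAL2 alone passed (difference -0.97 ± 0.19 log2, adjusted p = 0.00838), where 0.73% of all tested genes did. L1CAM, VEGFC and SEMA7A had differences of -0.09, -0.15 and -1.18 (adjusted p = 0.982, 0.957 and 0.87). The same difference was not tested for the 10 genes chosen on this comparison.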

How the data were processed

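For each of 36 A549 libraries the authors deposited a table of raw counts per Ensembl gene, from single-end HiSeq reads of stranded mRNA libraries. Per the submitters' processing notes, tools were bcl2fastq 2.17, TopHat2 2.0.14, Bowtie2 2.2.5 and HTSeq 0.6.1, with GRCh37. The annotation release and strand setting are not given in the sources used here. Groups came from the labels. The 5 summary lines of each table were left out (8.48% to 18.6% on no feature, 2.62% to 4.18% ambiguous).

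Symbols and positions came from GENCODE v44lift37, matched by identifier for 55665 of 63677 genes. edgeR 4.0.16 (R 4.3.3) was used with TMM scaling, filterByExpr (19180 of 39471 genes with any count, all 10 members among them) and 1 quasi-likelihood fit of 12 groups with 24 residual degrees of freedom. Called means a Benjamini-Hochberg adjusted p under 0.05 and a fold change over 2. DESeq2 1.42.0, other scalings, no filter, separate fits, a replicate block, leaving out each replicate, and removing or adjusting for libraries with over 10% mitochondrial counts were alternatives. The adjustment was a yes or no term for such a library and not the share itself. The fit was also run on simulated counts with a common spread for all genes and no difference in mitochondrial share between libraries. Changes were placed only in genes with more reads than SEMA3F on average, so that run does not bear on calls at such low levels.

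The members and gene lists were chosen with earlier results of these data known. Named genes were the members, related genes called at any time, those overlapping a member, the 5 most like SEMA3F and PLXND1, and CXCL8 and CCL2. Related genes in the change of response, and the stricter NF-kB string, were added after data were seen.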

Additional observations from a re-analysis of the deposited data

Results flagged for a closer look

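For 4 of the listed genes the IL-1β response was not the same 30 days after withdrawal as at day 21, by edgeR's quasi-likelihood test of the difference itself, with Benjamini-Hochberg adjustment. For MICAL2 the change was -0.97 (log2, adjusted p = 0.00838), for COL1A1 -2.22 (adjusted p = 0.00406), for CXCL8 -7.88 (adjusted p = 7.89e-09) and for CCL2 -4.15 (adjusted p = 0.000129). CXCL8 and CCL2 were listed as a check of the labels because IL-1β induces them. Their smaller response after withdrawal was foreseen and is not read as a result. COL1A1 rested on low levels, 2.43 ± 0.54 CPM with IL-1β and 1.03 ± 0.21 in controls at day 21 (SD, n = 3). At day 30 after withdrawal its levels were 1.20 ± 0.31 and 2.41 ± 0.99. The change thus held both a lower mean with IL-1β and a higher mean in controls than at day 21. The change of response from day 21 was not tested for the 10 semaphorin and receptor genes, which were chosen on this comparison.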

How the results depend on the processing

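Of the 10 semaphorin and receptor genes, 6 gene and time pairs were called during exposure, and 3 to 6 when a replicate was left out. The 3 called after withdrawal became 0 to 1 when a replicate was left out and 0 in separate fits of each time point. They became 6 with high mitochondrial share as a yes or no covariate. For the related genes, 23 pairs during exposure became 5 to 19 when a replicate was left out, 5 without replicate 1, and 6 pairs after withdrawal became 0 to 6, 0 in separate fits and 12 with the covariate. The 0 members called in the control arm stayed 0 in all settings run. In no setting did a called value change sign.

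Same-numbered libraries of the 2 arms tended to deviate together, with correlations from -0.336 to 0.718 (mean 0.279), 16 of 18 of them positive, but all 3 pairs were over 0.1 at only 2 of the 6 times, day 21 of exposure and day 30 after withdrawal. The negative pairs, replicate 1 at day 6 and replicate 3 at day 15 after withdrawal, joined a high-mitochondrial control to an IL-1β library that was not. Other pairs with a single high-mitochondrial library, at days 6, 15 and 21 of exposure, had correlations of 0.09, 0.13 and 0.20. The part of mitochondrial share in this was not tested. Of 36 libraries, 30 were closest to their own number, a hint from the data and not the design. With the replicate number as a block, 8 member pairs were called during exposure and 4 after withdrawal, and 26 and 7 related ones. The member calls gained were SEMA3A and PLXND1 at day 6 and SEMA3A at day 15 after withdrawal, none at the 2 times with all pairs over 0.1.

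Depth limited SEMA3F and PLXNA2, with 689 and 873 reads in all.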
